A study of Mus musculus with 6 samples.

Results

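Homeobox genes encode transcription factors that bind DNA through a homeodomain. The 32 genes described here belong to 3 classes: 11 LIM homeobox genes, 15 paired-like genes and 6 POU genes of classes 3 and 4. They were taken by name from a list, through their Entrez identifiers, and all 32 had a row among the 24421 genes counted. LIM homeodomain proteins carry a pair of zinc-binding LIM domains and act with the cofactor Ldb1, paired-like proteins have a homeodomain related to that of Pax proteins without the paired domain, and POU proteins combine a POU-specific domain with a homeodomain. They direct the making of neurons, eye, pituitary, limb, heart and face in the embryo. In embryonic stem cells many genes of this kind are known targets of Polycomb, a repressive system in which PRC1 adds ubiquitin to histone H2A through Ring1 or Rnf2.

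The libraries were made from germinal vesicle (GV) oocytes, which are full-grown and still in meiotic prophase, pooled at 15 oocytes from 1 mouse each. The mice were females of approximately 3 months, on a background mixed from FVB, 129/Sv and C57BL/6J. The 3 libraries called SKO came from Ring1 -/-; Rnf2 f/f mice and the 3 called DKO from Ring1 -/-; Rnf2 f/f; Zp3-cre mice, so Ring1 was null in every animal and the groups differed in Zp3-cre, which deletes Rnf2 in growing oocytes. No wild-type group and no group with the transgene and intact Rnf2 was analysed here, so the deletion and the transgene cannot be told apart. The comparison addresses what losing Rnf2 during oocyte growth does to transcript levels when Ring1 is already missing.

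Total counts ranged from 15521975 to 26652745 per library, and 3 counts, used as the floor of detection, were 0.113 to 0.193 CPM on these totals. CPM stands for counts per 1000000, and levels of genes are in CPM on totals scaled by TMM, an edgeR normalization, so they differ somewhat from counts divided by the totals. Rnf2 stood at 36.6 ± 17.5 CPM in the DKO libraries against 190 ± 11.8 CPM in the SKO ones (SD, n = 3), and Ring1 had at most 13 counts in any library. Of all genes tested, 17.3% were called higher in DKO and 7.41% lower, the shares to set beside each marker list that follows. All 10 oocyte markers were tested, with 7 lower and 0 higher in DKO. The 3 most abundant were Gdf9 and Nlrp5, which were not called (log2 fold changes of -0.50 and -0.33), and Bmp15, called lower (-0.68). Their summed level was 10900 to 14500 CPM in DKO and 19800 to 21000 CPM in SKO. Of 12 granulosa and cumulus markers, 4 of 10 tested were higher and 1 lower. The sum was 184 to 212 CPM in DKO and 109 to 135 in SKO, most of it Nr5a2, Cyp19a1 and Fshr. These moved in different directions: from SKO to DKO mean Fshr went from 0.506 to 30.7 CPM and Nr5a2 from 79.2 to 117, while Cyp19a1 went from 30.0 to 17.0. Of 10 markers of theca, stroma and endothelium, 3 of 7 tested were higher and 1 lower, and the sum, led by Pecam1, Kdr and Pdgfra, was 76.6 to 94.4 CPM in DKO and 97.1 to 130 in SKO. The 7 blood and immune markers summed to 3.19 to 4.73 CPM in DKO and 1.07 to 3.18 in SKO, with Cd68 the 1 tested and Hbb-bs and Hba-a1 at 0 counts in all libraries. Of 8 neural markers, 3 of 6 tested were higher and 0 lower, with Stmn2 at 0 counts in all libraries. Their sum, mainly Elavl3, Tubb3 and Map2, was 270 to 395 CPM in DKO and 266 to 292 in SKO. The part of these marker changes in the results below was not tested.

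Most of these homeobox genes that could be tested rose in DKO oocytes. Of the 32 genes, 19 passed the filter on low counts, 14 of these were called higher, 0 were called lower and 5 were not called (edgeR quasi-likelihood test, adjusted p under 0.05 over all 14845 genes tested). Among all genes tested, 17.3% were called higher and 7.41% lower, or 2567 and 1100 genes. Scaling by library totals instead gave 2905 and 596, and moved the median log2 fold change of all genes tested from 0.04 to 0.20. None of the 19 was lower at an unadjusted p under 0.05 either, by edgeR or by DESeq2. The median log2 fold change, DKO over SKO, was 2.64 over the 19 genes. Of these, 9 entered the test only with DKO, as set out below. The count of calls, this median and the count of genes without overlap are thus partly set by the filter. Over all genes tested the quartiles lay at -0.38 and 0.76. In 13 of the 19 genes the DKO and SKO libraries did not overlap, as in 44.3% of all genes tested.

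The filter itself favours rises, because a gene near 0 in SKO enters only if DKO libraries lift it. Of the 19 genes, 9 entered in that way and 7 of them were called higher. The other 10 genes also passed on the SKO libraries alone, and 7 of these were called higher, against 12.0% of the 12731 tested genes that pass on SKO alone. These 7 were Lhx2, Lhx5, Lhx6, Isl1, Lmx1a, Otx1 and Shox2.

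Calls also depend on the level in SKO. Of the 351 tested genes under 0.1 CPM in SKO, all of which entered only with DKO, 98.9% were called higher, so nothing is read from the calls of Lmx1b, Uncx and Pou3f2 there. Between 0.1 and 1 CPM, 41.4% of the genes that entered only with DKO were called higher, and 4 of the 6 homeobox genes among them (Lhx9, Prrx1, Phox2a and Pou3f1, not Gsc or Pou3f3). Among genes that passed on SKO alone, 23.8% of those at 0.1 to 1 CPM were called higher, and the 1 homeobox gene there, Lhx6, was called. At 1 to 10 CPM the share was 19.6%, and 4 of 6 homeobox genes were called (Lhx5, Isl1, Lmx1a and Shox2, not Isl2 or Alx1). At 10 to 100 CPM the share was 9.18% of all, and both homeobox genes there, Lhx2 and Otx1, were called. Above 100 CPM it was 2.23%, and the 1 homeobox gene there, Pou4f1, was not called.

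Summed, the 32 genes held 725, 645 and 793 CPM of the unscaled library totals in the DKO libraries, against 192, 191 and 185 in the SKO libraries. A pair of genes made up much of this sum. Otx1 held 38.9% to 43.3% of it in DKO and 17.7% to 26.2% in SKO, and Pou4f1 held 15.8% to 19% in DKO and 51.7% to 58.8% in SKO. Since each library is a pool of oocytes, more oocytes with the transcript and more transcript in each oocyte cannot be told apart.

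**Figure D1:**
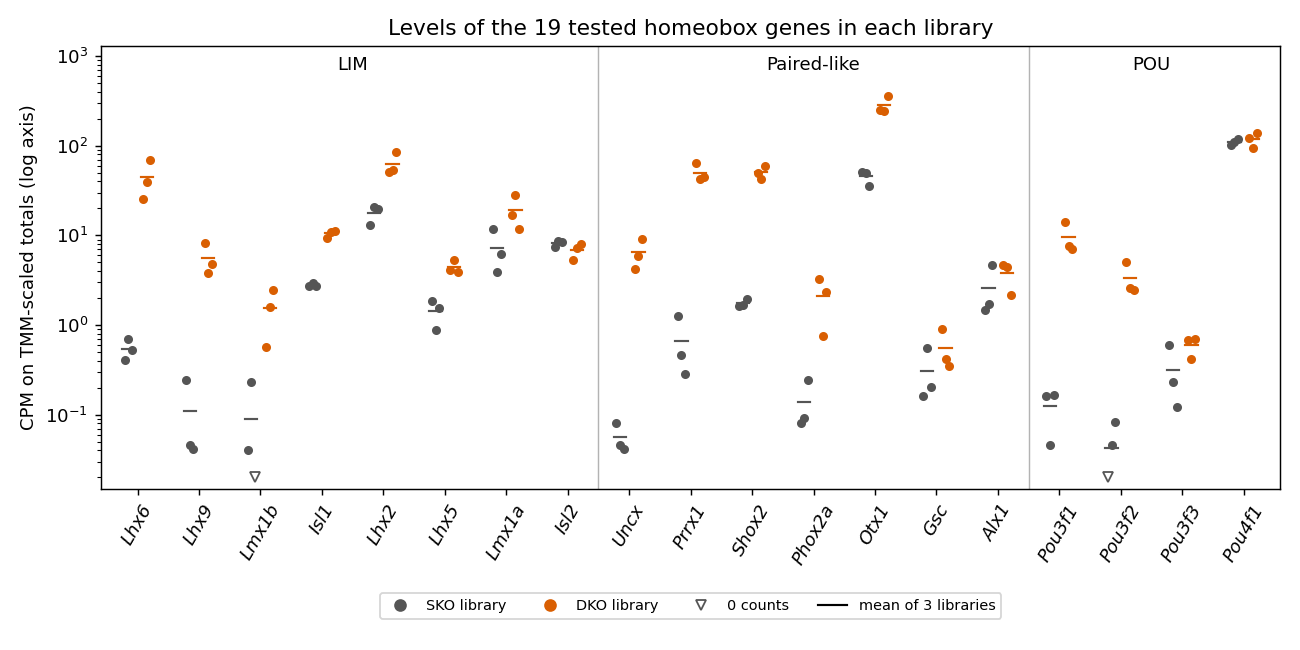
Level of each of the 19 tested homeobox genes in each library, in CPM on TMM-scaled totals (log axis), with SKO libraries in grey, DKO libraries in orange and the mean of 3 libraries as a bar. Triangles at the bottom mark libraries with 0 counts. The orange points of Lhx6, Uncx, Prrx1, Shox2, Pou3f1 and Pou3f2 lie far above the grey ones. For Isl2, Alx1, Gsc, Pou3f3 and Pou4f1 the ranges of the orange and grey points overlap.

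Of the 11 LIM genes 8 were tested, 7 rose and Isl2 was not called, where 17.3% of all genes tested rose. Of these 7, 2 entered the test only with DKO. The other 5 were among 6 LIM genes that passed on SKO alone, where the share over all genes was 12.0%. The count of 7 fell to 4 without SKO replicate 3. Lhx6, which specifies cortical interneurons (chromosome 2, 36081950 to 36105992, minus strand, GRCm38), measured 25.8, 39.1 and 68.7 CPM in the DKO libraries and 0.403, 0.691 and 0.534 CPM in the SKO libraries. Every DKO library was far above every SKO library, though the DKO libraries themselves spread widely. The log2 fold change was 6.35 (SE 0.45, edgeR adjusted p = 1.02e-05), the largest of the class.

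Lhx9, needed for the gonads to form (chromosome 1, 138825186 to 138848839, minus strand), had 146, 82 and 125 counts in DKO and 6, 1 and 1 counts in SKO. Its SKO level was thus at the edge of detection and came mostly from SKO replicate 1, without which the log2 fold change of 5.60 (SE 0.70, edgeR adjusted p = 0.000349) became 6.83. Lmx1b, a factor of dorsal limb and of midbrain dopamine neurons (chromosome 2, 33560965 to 33641208, minus strand), had 10, 34 and 63 counts in DKO and 1, 5 and 0 in SKO. Its DKO libraries lay above its SKO libraries at a low level throughout, with a log2 fold change of 4.07 (SE 1.02, edgeR adjusted p = 0.0154). Lmx1b overlaps C130021I20Rik on the other strand, which had 21 counts in all in DKO against 0 in SKO, so it moved the same way and reads of the pair cannot be told apart. This call was lost without SKO replicate 1 (log2 fold change 3.71, adjusted p = 0.0646) and without SKO replicate 3 (3.49, adjusted p = 0.0502), and without SKO replicate 2 the log2 fold change was 5.90. Both Lhx9 and Lmx1b entered the test only with DKO, and nothing is read from the call of Lmx1b, as set out above.

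The other LIM genes that rose were already transcribed in SKO oocytes. Lhx2, a forebrain, eye and hair follicle factor (chromosome 2, 38339271 to 38369737, plus strand), measured 50.5, 53.8 and 84.8 CPM in DKO and 13, 20.9 and 19.7 CPM in SKO, with a log2 fold change of 1.82 (SE 0.27, edgeR adjusted p = 0.001). Isl1, a factor of motor neurons, pancreas and heart progenitors (chromosome 13, 116298270 to 116309688, minus strand), was the steadiest of the class within each genotype. It measured 9.45, 10.9 and 11.2 CPM in DKO and 2.74, 2.95 and 2.71 CPM in SKO, a log2 fold change of 1.91 (SE 0.30, edgeR adjusted p = 0.00143).

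Lhx5, a hippocampal factor closely related to Lhx1, measured 4.1, 5.31 and 3.88 CPM in DKO and 1.85, 0.875 and 1.56 CPM in SKO (chromosome 5, 120431886 to 120441457, plus strand). The groups did not overlap, and the log2 fold change was 1.62 (SE 0.44, edgeR adjusted p = 0.0224). The call was lost without DKO replicate 2, SKO replicate 2 or SKO replicate 3 (adjusted p = 0.0646, 0.0919 and 0.0593). Lmx1a, the close relative of Lmx1b (chromosome 1, 167688230 to 167848741, plus strand), was the 1 called gene whose groups overlapped. Its DKO libraries held 17.1, 28.5 and 11.7 CPM and its SKO libraries 11.8, 3.96 and 6.2 CPM, so DKO replicate 3 fell just under SKO replicate 1. The log2 fold change of 1.38 (SE 0.44, edgeR adjusted p = 0.0437) was no longer called without DKO replicate 1 or 2 or without SKO replicate 2 or 3, with adjusted p = 0.0798, 0.164, 0.134 and 0.135.

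Isl2, which like Isl1 marks motor neurons (chromosome 9, 55538677 to 55547667, plus strand), did not pass the test. It measured 5.35, 7.23 and 7.96 CPM in DKO and 7.45, 8.57 and 8.42 CPM in SKO, and the libraries of the genotypes overlapped. Its log2 fold change of -0.25 (SE 0.30, edgeR adjusted p = 0.584) was the only one below 0 among the 19 genes. In SKO oocytes Isl2 was the more abundant of the 2 Isl genes per length, at 4.39 ± 0.33 CPM per kilobase against 0.716 ± 0.033 for Isl1. In DKO they measured 3.69 ± 0.73 and 2.69 ± 0.24 CPM per kilobase (SD, n = 3).

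**Figure D2:**
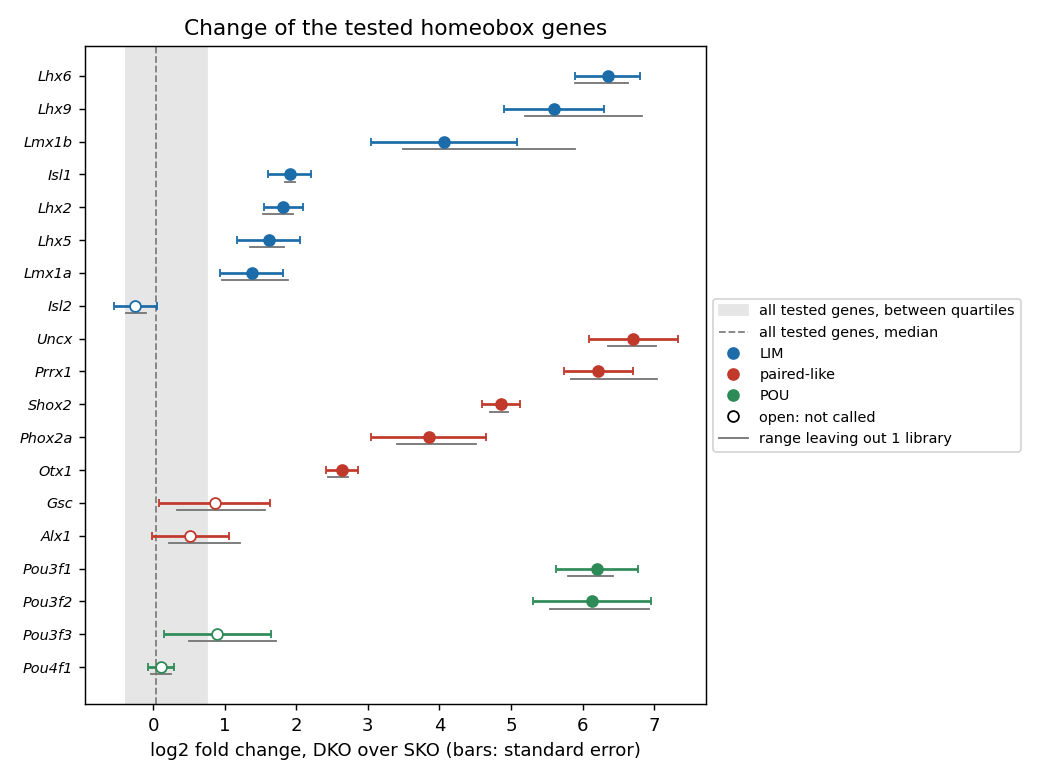
Log2 fold change of DKO over SKO for each tested homeobox gene (x axis), grouped by class and ordered by size, with standard errors as bars and grey lines for the range when 1 library is left out. Filled points were called higher and open points were not called, the grey band runs between the quartiles of all tested genes, and the dashed line is their median of 0.04. Uncx at 6.71 is the highest point and Isl2 at -0.25 the lowest.

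Of the 15 paired-like genes 7 were tested, 5 rose, and Gsc and Alx1 were not called, where 17.3% of all genes tested rose. Of the 5 that rose, 3 entered the test only with DKO. The other 2, Otx1 and Shox2, were among 3 that passed on SKO alone, where the share over all genes was 12.0%. Otx1, a factor of cerebral cortex and inner ear (chromosome 11, 21994764 to 22001651, minus strand), was the most abundant of all 32 genes in DKO. It measured 249, 246 and 355 CPM in DKO and 51.5, 49.5 and 35.4 CPM in SKO, with every DKO library far above every SKO library. The log2 fold change was 2.64 (SE 0.22, edgeR adjusted p = 2.81e-05).

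Shox2, which patterns the proximal limb and the cardiac pacemaker (chromosome 3, 66971723 to 66981771, minus strand), had the smallest adjusted p of the 32. It went from 1.65, 1.66 and 1.93 CPM in SKO to 49.9, 42.6 and 59.6 CPM in DKO, a log2 fold change of 4.86 (SE 0.26, edgeR adjusted p = 1.88e-06). Shox2 overlaps Rsrc1 on the other strand. Rsrc1 had a log2 fold change of -0.01 and changed by -0.291 CPM where Shox2 gained 49 CPM.

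Prrx1, a factor of limb and craniofacial mesenchyme (chromosome 1, 163245119 to 163315145, minus strand), was also strongly higher. It measured 64.4, 42.2 and 44.4 CPM in DKO and 1.25, 0.461 and 0.288 CPM in SKO, with a log2 fold change of 6.22 (SE 0.48, edgeR adjusted p = 1.54e-05) and of 7.04 without SKO replicate 1, its highest control. Its paralog Prrx2 stayed near 0, with 2, 5 and 1 counts in DKO and 0, 2 and 0 in SKO.

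Uncx, which acts in the caudal part of the somites (chromosome 5, 139543865 to 139548179, plus strand), was near 0 in SKO and entered the test only with DKO. It had 74, 127 and 238 counts in DKO and 2, 1 and 1 in SKO. The log2 fold change was 6.71 (SE 0.62, edgeR adjusted p = 4.88e-05), and the 4 SKO counts leave the ratio of levels between 46.7 and 444 (exact 95% Poisson interval, counting error only). Phox2a, a factor of noradrenergic neurons (chromosome 7, 101818313 to 101822726, plus strand), had 57, 16 and 60 counts in DKO and 2, 2 and 6 in SKO, with a log2 fold change of 3.85 (SE 0.80, edgeR adjusted p = 0.00603). Without SKO replicate 3, the highest of the SKO libraries, the log2 fold change was 4.51. Phox2a stayed low in both genotypes, with the lowest DKO library above the highest SKO library, and overlaps Inppl1 on the other strand, which had a log2 fold change of -0.02.

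Alx1 and Gsc were low in both genotypes and their groups overlapped. Alx1, a craniofacial mesenchyme factor (chromosome 10, 103007847 to 103029549, minus strand), had 83, 94 and 56 counts in DKO and 37, 37 and 113 in SKO, and at 4.64 CPM SKO replicate 3 was close to the highest DKO library, at 4.73 CPM. Its log2 fold change was 0.52 (SE 0.54, edgeR adjusted p = 0.518). Gsc, a gene of the gastrula organizer (chromosome 12, 104471209 to 104473236, minus strand), had 16, 9 and 9 counts in DKO and 4, 12 and 5 in SKO (log2 fold change 0.86, SE 0.77, edgeR adjusted p = 0.456). The difference was smaller than the spread between the libraries.

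The POU genes of class 3 are known from neurons and Schwann cells. All 3 entered the test only with DKO, so their values are given and nothing is read from the 2 calls among them as a count. Pou3f1 (chromosome 4, 124657646 to 124660655, plus strand) had 251, 163 and 180 counts in DKO and 4, 1 and 4 in SKO, a log2 fold change of 6.20 (SE 0.57, edgeR adjusted p = 5.17e-05). Pou3f2 (chromosome 4, 22482095 to 22488366, minus strand) had 89, 55 and 63 counts in DKO and 0, 1 and 2 in SKO, so its ratio of levels was 75.7 with an exact 95% Poisson interval of 25.6 to 370 (log2 fold change 6.13, SE 0.82, edgeR adjusted p = 0.0005). Without SKO replicate 3, which held 2 of the 3 SKO counts, the log2 fold change was 6.93. Both had 0 to 4 counts in each SKO library and 55 to 251 in each DKO library, so the groups lay far apart. Pou3f3, a forebrain and kidney factor (chromosome 1, 42695768 to 42700210, plus strand), had 12, 9 and 18 counts in DKO and 15, 5 and 3 in SKO and was not called (log2 fold change 0.90, SE 0.75, edgeR adjusted p = 0.42).

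In class 4, 1 gene was abundant and 2 had no counts. Pou4f1, a sensory neuron factor (chromosome 14, 104461675 to 104468118, minus strand), measured 122, 94.7 and 139 CPM in DKO and 102, 109 and 118 CPM in SKO. The DKO libraries lay on both sides of the SKO libraries. The log2 fold change was 0.11 (SE 0.18, edgeR adjusted p = 0.688), between -0.03 and 0.27 over all alternatives run. The value below 0 came without DKO replicate 3 and the highest with library totals. Pou4f2, of retinal ganglion cells, and Pou4f3, of inner ear hair cells, had 0 counts in all 6 libraries.

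**Figure D3:**
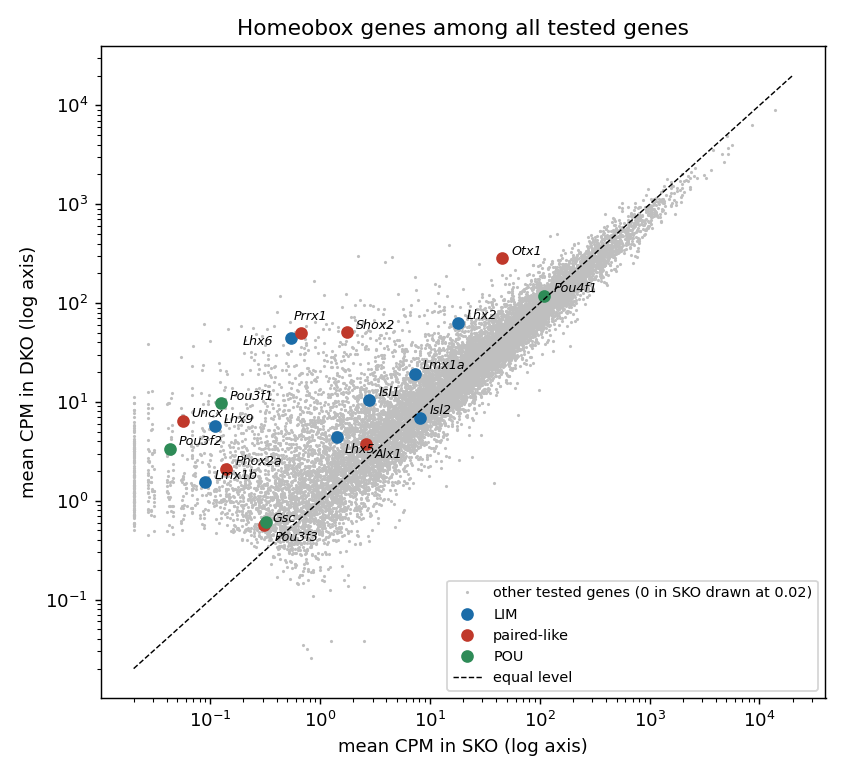
Mean level in SKO (x axis) against mean level in DKO (y axis) of every tested gene, in CPM with both axes on a log scale, with the homeobox genes coloured by class and the line of equal level dashed. The homeobox genes that rose lie above the line over the whole range of SKO levels, from Pou3f2 at 0.0427 CPM to Otx1 at 45.5 CPM, and Pou4f1 lies on the line near 110 CPM.

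Per length, the order of levels changed between the genotypes. In SKO oocytes Pou4f1 stood highest at 28.8 ± 2.1 CPM per kilobase, followed by Otx1 at 8.72 ± 1.68, Lhx2 at 6.33 ± 1.5 and Isl2 at 4.39 ± 0.33 (SD, n = 3). Otx1 and Lhx2 differed by less than the sum of their SDs. In DKO oocytes Otx1 stood highest at 54.3 ± 11.9, followed by Pou4f1 at 31.2 ± 5.9, Lhx2 at 22.4 ± 6.7, Shox2 at 15.5 ± 2.6 and Lhx6 at 12.4 ± 6.1 CPM per kilobase. From Pou4f1 down, each of these neighbours differed by less than the sum of their SDs.

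Which genes stayed silent was the other question. Of the 32 genes, 13 were below the filter, and 7 of these had at most 3 counts in every library: Lhx1, Lhx3, Lhx4, Otx2, Pitx3, Pou4f2 and Pou4f3. Silent here means no more than this floor in each library, for the gene as the authors counted it. Lhx1, which acts in the head organizer and kidney, Lhx4, of pituitary and motor neurons, Otx2, of forebrain, midbrain and eye, Pou4f2 and Pou4f3 had 0 counts in all 6 libraries. The sources used here do not say whether the authors' counting could assign reads to each of them. Beside these 5 of 32, 4102 of all 24421 genes counted had 0 counts in all 6 libraries. Having no counts was thus not particular to this set. The share of all genes with at most 3 counts in every library was not taken.

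Lhx3, the partner of Lhx4 in the pituitary, had 2, 1 and 0 counts in DKO and 0 in every SKO library, and Pitx3, a lens and dopamine neuron factor, had 3, 0 and 1 against 0. Both stayed at or under the floor in each library. Close relatives therefore differed in whether they were detected: Otx1 was the most abundant of the set in DKO, and second to Pou4f1 in SKO, while Otx2 had no counts, Lhx5 rose and Lhx1 had none, and Pou4f1 was abundant while its 2 relatives had none.

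The other 6 genes below the filter were detected without reaching it. Pitx1, a hindlimb and pituitary factor, had 3, 2 and 41 counts in DKO and 9, 1 and 4 in SKO, and Rax, the eye field gene, had 0, 1 and 21 in DKO and 0, 1 and 0 in SKO. In both, DKO replicate 3 held nearly all the DKO reads. Vsx1, a retinal bipolar cell gene, had 11, 10 and 0 counts in DKO and 1, 2 and 2 in SKO, and Alx4, a craniofacial gene, had 8, 12 and 0 in DKO and 1, 5 and 0 in SKO. In both, DKO replicate 3 held none. Otp, of neuroendocrine hypothalamus, had 4 counts in SKO replicate 3 and 0 in the other libraries. With no filter, 8 of the 13 could be fitted, with edgeR adjusted p from 0.15 (Rax) to 0.471 (Prrx2). Without DKO replicate 3, Vsx1 entered the test and was called higher (log2 fold change 2.84, edgeR adjusted p = 0.0461).

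Sequences around the start sites were compared next. RefSeq promoter windows on GRCm38.p6, from 250 bases before to 50 after a start site, were found for 24 of the 32 genes, using the first entry of each gene. The 4 windows below are shown for the range of CpG content and of levels they cover: Uncx with 26 CpG dinucleotides and Lhx9 with 6 were near 0 in SKO and present in DKO, Pou4f1 with 57 was abundant in both genotypes, and Lhx1 with 31 was silent in both. The Lhx9 window lies at a start inside the gene's full extent. Each is written in the direction of transcription, with every CpG in capitals.
Uncx, chr5:139543648-139543947, plus strand: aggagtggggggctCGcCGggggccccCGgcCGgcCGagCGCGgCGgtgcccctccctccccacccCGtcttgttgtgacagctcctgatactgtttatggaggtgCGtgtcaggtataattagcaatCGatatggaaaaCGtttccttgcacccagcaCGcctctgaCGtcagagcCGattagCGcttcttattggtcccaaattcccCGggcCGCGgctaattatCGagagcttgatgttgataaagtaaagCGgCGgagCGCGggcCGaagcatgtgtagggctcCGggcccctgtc
Lhx9, chr1:138842395-138842694, minus strand: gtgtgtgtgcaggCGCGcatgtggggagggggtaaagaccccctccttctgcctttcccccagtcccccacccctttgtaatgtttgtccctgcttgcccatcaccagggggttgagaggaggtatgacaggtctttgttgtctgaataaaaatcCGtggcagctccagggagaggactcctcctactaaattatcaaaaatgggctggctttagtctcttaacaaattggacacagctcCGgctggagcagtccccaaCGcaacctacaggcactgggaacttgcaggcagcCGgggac
Pou4f1, chr14:104467950-104468249, minus strand: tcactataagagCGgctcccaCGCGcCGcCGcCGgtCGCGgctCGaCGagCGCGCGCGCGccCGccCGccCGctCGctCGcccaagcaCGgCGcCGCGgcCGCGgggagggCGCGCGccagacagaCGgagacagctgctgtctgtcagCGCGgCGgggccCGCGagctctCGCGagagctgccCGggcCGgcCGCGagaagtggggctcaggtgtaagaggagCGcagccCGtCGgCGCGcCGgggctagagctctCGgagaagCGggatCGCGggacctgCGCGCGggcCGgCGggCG
Lhx1, chr11:84525485-84525784, minus strand: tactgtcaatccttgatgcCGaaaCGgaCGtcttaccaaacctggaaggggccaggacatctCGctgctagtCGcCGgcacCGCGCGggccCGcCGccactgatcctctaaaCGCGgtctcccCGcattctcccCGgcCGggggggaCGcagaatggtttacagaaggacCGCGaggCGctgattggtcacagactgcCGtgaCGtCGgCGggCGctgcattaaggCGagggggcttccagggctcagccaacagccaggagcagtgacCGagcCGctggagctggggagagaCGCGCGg

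The median of the 24 windows was 20 CpG, the same as over the 11761 tested genes with a window. Over all 27025 genes with a window it was 7. The 11 genes called higher had a median of 24 (6 to 37), the 4 not called one of 24 (18 to 57) and the 9 below the filter one of 19 (5 to 31). These ranges overlapped. By class the medians were 21 for LIM, 20 for paired-like and 21 for POU genes. Pou4f1 had more CpG than 99.9% of all windows, and Prrx1 and Lhx9, which rose strongly, had 6 each. Like that of Lhx9, the windows of Prrx1, Lhx4, Isl2 and Lmx1a, among others, lie at starts inside the gene's full extent. CpG at the outermost start of these genes was not counted.

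**Figure D4:**
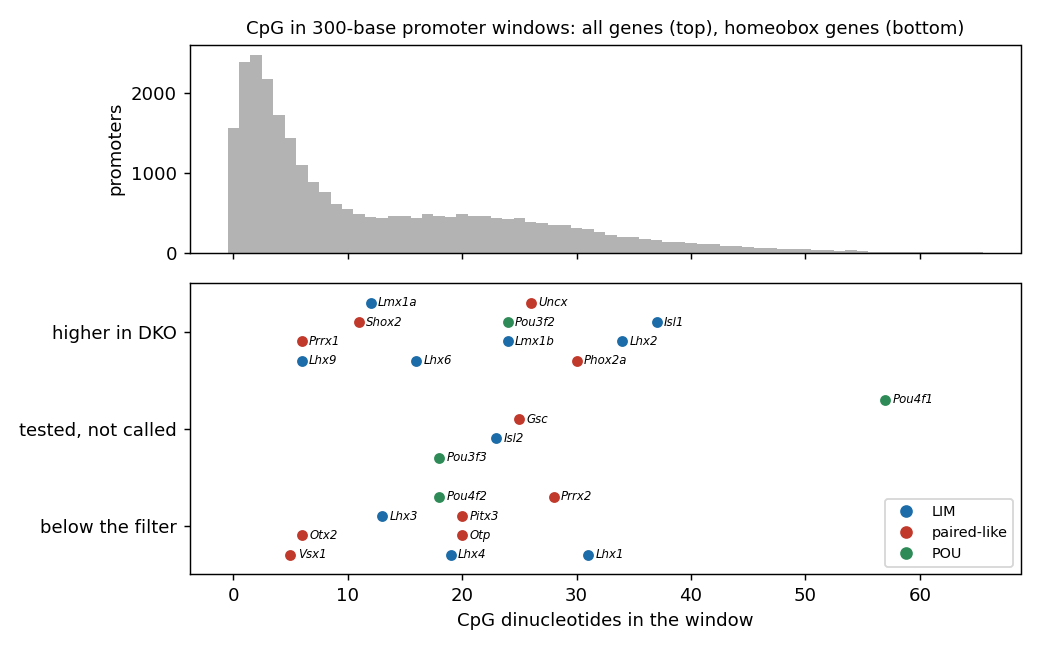
Number of CpG dinucleotides in the 300-base promoter window, for all genes with a window (top, number of promoters on the y axis) and for the 24 homeobox genes with one (bottom, by result, coloured by class). The genes called higher span 6 to 37 CpG and those below the filter 5 to 31, so the rows overlap, with Pou4f1 apart at 57.

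Motifs bound by these classes were looked for on both strands of the same windows. The homeodomain motif TAATTA, which reads the same on both strands, was in 3 of the 24 windows (12.5%), those of Otx2, Prrx1 and Uncx. It was in 5.31% of all windows and in 3.03% of those of tested genes. The motif TAATCC, bound by Otx and Pitx proteins, was in 1 of 24 (Isl1), in 7.16% of all and in 5.82% of those of tested genes. The POU octamer ATGCAAAT was in 0 of 24, in 1.75% of all and in 1.52% of those of tested genes. TAATTA ends in the letters that begin TAATCC, so a match of one can overlap the other, though none of these windows held both. A match is a description of letters, not of binding.

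Genes next door were also compared. Within 100 kb of the 14 genes that rose, taking the nearest tested gene on each side, there were 14 neighbours, of which 0 were called higher and 0 lower (edgeR), where 17.3% and 7.41% of all genes tested were. So few neighbours leave little to read from the count. Their median log2 fold change was -0.19. At an unadjusted p under 0.05, 0 were higher and 1 lower by edgeR and by DESeq2. The neighbour Ehbp1 lay 4.17 kb from Otx1 and had a log2 fold change of -0.23, and Rbm18 lay 10.1 kb from Lhx6 and had -0.21. Farther out than that, the nearest tested genes included calls in both directions, such as Mlf1 beside Shox2, called higher, and Rbm19 beside Lhx5, Parp8 beside Isl1 and Mgst3 beside Lmx1a, called lower. Within 100 kb of the genes that did not rise, 2 of 24 neighbours were called higher, Qsox2 beside Lhx3 and Obi1 beside Pou4f1, and 2 lower, or 8.33% higher.

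Other genes of the same families, taken from a list, gave mixed results. Of 26 listed relatives 17 were tested, 7 were higher and 1 lower, where 17.3% and 7.41% of all genes tested were. Of the 7, 3 entered the test only with DKO. The other 4 were among 12 relatives that passed on SKO alone, where the share over all genes was 12.0%. Dmbx1 measured 9.68, 13.7 and 12.6 CPM in DKO and 0.725, 0.691 and 0.0822 CPM in SKO, and rose by 4.58 on the log2 scale (SE 0.59, edgeR adjusted p = 0.000423). Isx, an intestinal factor, measured 5.47, 18.7 and 11.6 CPM in DKO and 1.33, 0.645 and 1.07 CPM in SKO, and rose by 3.55 (SE 0.51, edgeR adjusted p = 0.000829). Of 3 relatives known from oocytes none was called higher: Lhx8 stood at 257 ± 53.7 CPM in DKO and at 208 ± 12.9 in SKO (log2 fold change 0.30, edgeR adjusted p = 0.25), Nobox 764 ± 183 and 814 ± 26.3 CPM (-0.09, adjusted p = 0.757), and Sebox, the 1 relative called lower, 37.4 ± 20.9 and 86.5 ± 1.59 CPM (SD, n = 3, -1.21, adjusted p = 0.0335). These 3 were singled out after their values were seen.

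Cofactors of the 3 classes were also listed. Of 16 listed, 15 were tested, 4 were higher and 1 lower, not far from the 17.3% and 7.41% of all genes tested. Of the 4, Lmo2 and Tle3 entered the test only with DKO, and Lmo2 lay under 0.1 CPM in SKO, where nearly all tested genes were called. Ldb1, an adaptor of LIM homeodomain proteins, measured 84.2 ± 32 CPM in DKO and 121 ± 9.03 in SKO and was not called (edgeR adjusted p = 0.153). Ldb2, also listed as a LIM cofactor, measured 14.4 ± 1.42 CPM in DKO and 8.03 ± 0.917 in SKO. It was called higher (log2 fold change 0.84, edgeR adjusted p = 0.0369) and was named here after its values were seen. The LIM-only genes Lmo4 and Lmo2, whose proteins compete for Ldb1, rose by 3.01 on the log2 scale (SE 0.35, edgeR adjusted p = 0.000204) and 5.59 (SE 0.94, adjusted p = 0.00197), Lmo2 from 5 counts over the SKO libraries. Among the TLE corepressors, which many homeodomain proteins recruit, Tle3 rose by 7.48 on the log2 scale (SE 0.49, edgeR adjusted p = 6.23e-06) and Tle6, a maternal gene of the oocyte, fell by 1.12 (SE 0.26, adjusted p = 0.0108).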

How the data were processed

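Raw counts of reads, 1 row for each Entrez identifier, came with gene lengths in the table that the authors deposited. Per the submitters' processing notes, reads were aligned with STAR 2.5.0a, and GRCm38 and mm10 are named. The sources used here do not name the counter, the annotation or the use of strand, so reads of overlapping genes cannot be told apart. Per the labels' protocols, RNA was amplified before library preparation, so intervals and floors cover counting error only.

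Of 24421 identifiers, 24387 matched RefSeq genes of GRCm38.p6, which gave symbols and coordinates. Column names matched the sample titles. In R 4.3.3, edgeR 4.0.16 kept 14845 genes (filterByExpr, minimum count 10, minimum total 15), scaled libraries with TMM and ran a two-sided quasi-likelihood test of DKO against SKO with p-values adjusted across these genes (Benjamini-Hochberg). The call threshold was an adjusted p under 0.05. Standard errors were derived from the F statistic, and those of genes with few counts are approximate. The code was tested on simulated data, with changes put only into well-counted genes and a spread taken from the SKO libraries. That test does not cover calls of genes near 0 in SKO. The members and gene lists were chosen with earlier results of these data known. Values per library are given for called members and those above 2 CPM, and for the rest where counts are few; of relatives and cofactors the 4 called with the smallest adjusted p were chosen for naming in each list, and some are not reported here, and of marker lists the 3 most abundant tested. Alternatives included DESeq2 1.42.0 and other scalings, filters and left-out libraries. Proteins were not used here. Each library is 1 animal.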

Additional observations from a re-analysis of the deposited data

How the results depend on the processing

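The count of 14 rises among the homeobox genes was 11 to 15 over all alternatives run. It was 14, with the same genes, under DESeq2, RLE size factors, library totals, no filter, thinned libraries and the GC and length offset, and 12 with the stricter filter, which left Lmx1b and Phox2a untested. Leaving out 1 library gave 11 to 15. The LIM count of 7 was 4 to 7, the 4 without SKO replicate 3, where Lhx5, Lmx1a and Lmx1b were lost. The 9 lost calls of single genes were all of Lhx5, Lmx1a and Lmx1b and all from leaving out 1 library. Pou4f1, not called, had log2 fold changes of -0.03 to 0.25 when 1 library was left out, the value below 0 without DKO replicate 3. The cause was not tested.

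Over all genes, 2567 rises became 1952 to 2704 when 1 library was left out, and 1100 falls became 434 to 1501. Library totals gave 2905 rises and 596 falls, so rises made up 83% of calls instead of 70%. The GC and length offset gave 2492 rises and 1629 falls (60.5%), and with the replicate block as well 2504 and 1906 (56.8%). Among relatives and cofactors, 2 falls became 1 with library totals and 1 to 4 when 1 library was left out.

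Same-numbered libraries correlated at 0.139, 0.0773 and 0.0479 in their deviations from the group means, and each correlated best with its own number, but the labels do not say what a number shares. A fit with the number as a replicate block gave 14 rises among the homeobox genes, the same genes, and 2651 rises and 1364 falls over all genes. Of 7 silent genes, 5 had 0 counts in all libraries, and 9 genes had at most 10 counts in each. Depth limits the genes near the floor of 3 counts.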
